A study of Mus musculus with 2 samples.

Results

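The surface antigens by which adipocyte progenitor cells (APCs) are commonly stained and sorted were followed as RNA in single cells of aged gonadal white adipose tissue (gWAT). They are the 10 genes Pdgfra, Pdgfrb, Cd34, Ly6a, Thy1, Cd9, Cd55, Icam1, Vcam1 and Pi16, chosen by name, of 31054 genes counted. Both libraries came from the gWAT of 18-month-old male p16-CreERT2/R26-LSL-tdTomato mice, in which tamoxifen activates a Cre recombinase made by cells that express p16 and the recombined allele then makes tdTomato. The Tom+ library held CD31- CD45- cells with tdTomato fluorescence (p16high) and the Tom- library held CD31- CD45- cells without it (p16low), and all mice carried both alleles and received tamoxifen. Such a reporter marks cells by p16 expression at the time of tamoxifen, and how many mice were pooled in a library is not given in the sources used here. There was 1 library per condition, so no test between the libraries could be made, cells are not replicates, and a difference between sorted groups cannot be told apart from a difference between preparations. All intervals in parentheses are at 95% and cover counting error only.

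In adipose tissue, stromal progenitors lie around vessels and in the connective tissue sheets between lobules, and a mesothelium covers the outer surface of visceral depots. Cells of the interstitial sheets are known for DPP4, PI16 and CD55, whereas cells closer to the adipocyte fate are known for ICAM1, VCAM1 and PPARG. PDGFRA and PDGFRB are receptor tyrosine kinases for platelet-derived growth factors, and SCA-1, the product of Ly6a, and CD34 are the antigens most often added to them in a progenitor gate.

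The filter kept cells with over 1000 genes but fewer than 7000, and under 8% of UMIs (unique molecular identifiers, each standing for 1 captured RNA molecule) from mitochondrial genes, and left 3524 of 5566 Tom+ and 6717 of 11838 Tom- barcodes. Cells with at least 10 UMIs of Msln, Upk3b, Krt19, Lrrn4 and Upk1b together were called mesothelial, 250 in the Tom+ and 1887 in the Tom- library, and cells with under 5 were called stromal, 3263 and 4800. The 11 Tom+ and 30 Tom- cells between the limits were in neither class. Median depth was 14235 UMIs for Tom+ stromal, 11270 for Tom- stromal, 18601.5 for Tom+ mesothelial and 14753 for Tom- mesothelial cells. All 8 stromal markers were found in both stromal classes, summed to 48365 and 54051 CPM (UMIs per 1000000 UMIs of the class). They were found in both mesothelial classes too, summed to 15669 CPM in the Tom+ and 17994 CPM in the Tom- library. All 9 mesothelial markers were found in both mesothelial classes, but they include the 5 genes that set the class. The summed level of 5 endothelial markers was 6.24 and 8.33 CPM in the stromal classes. The summed level of 6 immune markers, led by Lyz2, was 195 CPM in Tom+ and 51.6 CPM in Tom- stromal cells. In Tom+ mesothelial cells the same markers summed to 368 CPM, with Lyz2 at 275 CPM. Their sum was far lower in Tom- mesothelial cells, where the leading gene, Csf1r, was at 12.3 CPM. The stromal classes also held 128 Tom+ and 50 Tom- cells with at least 5 UMIs of the plasma cell gene Mzb1, called plasma-like here, which carried 10.3% and 3.21% of the stromal UMIs. Of all barcodes 2224 were listed in both libraries, of which 9 passed the filter in both, 772 in 1 and 1443 in neither. Among kept Tom+ cells, barcodes listed in both made up 12.4% of stromal, 40.0% of mesothelial and 87.5% of plasma-like cells. Among kept Tom- cells they made up 1.56% of stromal, 11% of mesothelial and 40.0% of plasma-like cells. What the sharing stands for was not tested, and where an antigen's call or leading genes change without the plasma-like cells or without these barcodes, both values are given.

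In GRCm38, Pdgfra lies on chromosome 5 from 75152292 to 75198215 and Cd34 on chromosome 1 from 194938819 to 194961279. Cd55 is also on chromosome 1, from 130439027 to 130462744. Ly6a is on chromosome 15 from 74994877 to 74998031, Thy1 on chromosome 9 from 44043384 to 44048579, Cd9 on chromosome 6 from 125460266 to 125494791, Icam1 on chromosome 9 from 21015985 to 21028817, Vcam1 on chromosome 3 from 116109949 to 116129688 and Pi16 on chromosome 17 from 29317680 to 29330593. Pdgfra, Cd34, Cd9, Cd55, Icam1, Vcam1 and Pi16 each overlap an annotated gene on the other strand, and the strand setting of the counting is not given in the sources used here. Ly6a and Cd55 have close paralogs, and reads that fit a paralog as well make their counts less certain.

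The upstream sequence is shown for Icam1, the antigen of the inflammatory response whose textbook inducer is NF-kB, and for Cd55, the antigen that was found with Pi16 in the same cells. Each run is the 250 bases upstream of the RefSeq start in GRCm38.p6, 5′ to 3′ on the gene's own strand. Capitals mark matches on either strand to a κB-like motif, GGNNNTTCC or its form with 1 more N, and to a GC box, GGGCGG.
Icam1, chr9:21015690-21015939, + strand: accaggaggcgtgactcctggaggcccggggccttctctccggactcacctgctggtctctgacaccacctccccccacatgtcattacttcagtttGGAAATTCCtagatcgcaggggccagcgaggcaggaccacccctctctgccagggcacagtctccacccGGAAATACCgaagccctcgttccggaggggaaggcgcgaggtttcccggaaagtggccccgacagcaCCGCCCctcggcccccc
Cd55, chr1:130462745-130462994, - strand: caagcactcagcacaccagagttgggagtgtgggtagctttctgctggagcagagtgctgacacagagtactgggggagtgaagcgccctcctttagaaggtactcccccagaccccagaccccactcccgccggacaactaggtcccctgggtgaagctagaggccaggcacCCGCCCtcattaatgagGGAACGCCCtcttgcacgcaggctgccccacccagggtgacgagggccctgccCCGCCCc
The Icam1 sequence held κB-like matches starting at -153, on both strands of the same letters, and at -84, and a GC box at -17, counted from the start of transcription. In Cd55 a κB-like match lay at -60 and GC boxes at -77 and -7. Among all 32851 promoter windows of the same length, 15.7% held GGNNNTTCC, 15.2% its longer form and 32.7% GGGCGG. Of the 6 antigen genes with a sequence in the RefSeq table (Pdgfra, Cd34, Cd9, Cd55, Icam1 and Pi16), 3 held GGNNNTTCC (Cd9, Cd55, Icam1), 2 the longer form (Cd9, where it overlaps the shorter one, and Pi16) and 3 the GC box (Cd9, Cd55, Icam1). The Pi16 window lies within an exon of a longer annotated transcript of the gene, so that it is not upstream of every Pi16 transcript. A TATA box, TATAAA, was in 0 of the 6 and in 12.4% of all windows. These matches describe letters only.

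The antigens separated stromal from mesothelial cells unequally. The receptor genes, Ly6a, Vcam1 and Pi16 were several-fold higher in stromal cells of both libraries, whereas Cd34, Cd9 and Icam1 differed less between the classes, Cd34 toward the mesothelial and the other two toward the stromal side. In each library, the log2 ratio of stromal over mesothelial CPM was taken relative to its median over all genes that averaged 5 CPM or more, which was -0.11 in the Tom+ and -0.14 in the Tom- library. A gene was called apart at a relative log2 ratio of at least 1 in either direction. In the Tom+ library 6 of the 10 antigens were higher in stromal cells, against 11.1% of all genes tested, and 0 were lower, against 11.6%. In the Tom- library 7 were higher, against 10.5% of all genes, and 0 were lower, against 10.5%. The 6 were Pdgfra, Pdgfrb, Ly6a, Thy1, Vcam1 and Pi16, and the Tom- library added Cd55.

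Pdgfra, the receptor on which most APC gates rest, stood at 344 CPM (339 to 349) in Tom+ stromal cells and 282 CPM (278 to 286) in Tom- stromal cells, and at 41.9 CPM (36.6 to 47.8) and 51.4 CPM (48.9 to 53.9) in the mesothelial cells of the same libraries. The relative log2 ratio of stromal over mesothelial was 3.15 (2.96 to 3.35) in the Tom+ and 2.59 (2.52 to 2.67) in the Tom- library. Pdgfrb, the receptor shared with mural cells, was at 167 and 117 CPM in stromal and 13.2 and 12.2 CPM in mesothelial cells, the widest separation of the 10 antigens in the Tom+ library, with a relative log2 ratio of 3.77 (3.44 to 4.14) over all kept cells. In the Tom- library it was 3.39 (3.24 to 3.54). The summed level of 6 mural markers was 73.4 CPM in the Tom+ and 42.3 CPM in the Tom- stromal class, led by Myh11, and its part in the Pdgfrb level was not tested.

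Ly6a, which encodes SCA-1, had 65581 UMIs in stromal cells of the Tom+ and 81711 in those of the Tom- library. It was at 1283 CPM (1273 to 1293) and 1412 CPM (1402 to 1421) there and at 196 and 213 CPM in mesothelial cells, a relative log2 ratio of 2.82 and 2.86. Ly6a therefore had much the same stromal to mesothelial ratio in both libraries. Vcam1, an adhesion molecule that binds leukocyte integrins, was at 178 and 244 CPM in stromal and 42.1 and 48.2 CPM in mesothelial cells, with ratios of 2.19 and 2.48.

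Pi16, a peptidase inhibitor tied to the membrane, stood at 139 CPM (136 to 143) in Tom+ stromal cells and 237 CPM (233 to 241) in Tom- stromal cells, against 22.2 and 16.5 CPM in mesothelial cells. Its RNA was held by few cells. The tenth of stromal cells with the most Pi16 UMIs carried 85.4% of them in the Tom+ and 80.8% in the Tom- library, and 1 of the 250 Tom+ mesothelial cells alone held 74 of their 118 Pi16 UMIs. The relative log2 ratio of stromal over mesothelial was 2.77 in the Tom+ and 3.98 in the Tom- library, and 5.20 and 4.68 without the barcodes listed in both libraries. Thy1, the small GPI-anchored antigen CD90, was low in both classes, at 22.1 and 29.6 CPM in stromal and 9.02 and 14 CPM in mesothelial cells.

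Cd34, a sialomucin used with SCA-1 to define APCs, ran the other way. It reached 435 CPM (417 to 453) in mesothelial cells of the Tom+ library and 417 CPM (410 to 424) in those of the Tom- library and stood at 294 and 292 CPM in stromal cells, with relative log2 ratios of -0.45 (-0.52 to -0.39) and -0.38 (-0.41 to -0.35). With each cell thinned at random to 5000 UMIs, so that depth was equal, a Cd34 UMI was found in 82.8% of mesothelial cells in both libraries and in 68.3% (66.6 to 69.9) of Tom+ and 64.7% (63.3 to 66.1) of Tom- stromal cells. Cd34 RNA was thus a marker of both classes. Cd9, a tetraspanin, was at 460 and 398 CPM in stromal and 330 and 392 CPM in mesothelial cells, with ratios of 0.59 and 0.16. Icam1, the other leukocyte adhesion molecule, was at 188 and 233 CPM in stromal and 154 and 180 CPM in mesothelial cells, with ratios of 0.40 and 0.51. Cd55, which protects cells from complement, was at 187 and 214 CPM in stromal and 131 and 114 CPM in mesothelial cells. Its ratio was 0.63 in the Tom+ and 1.05 in the Tom- library, and it crossed the limit of 1 in the Tom+ library without the barcodes listed in both, at 1.02, and missed it in the Tom- library with each cell weighted equally, at 0.99.

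**Figure D1:**
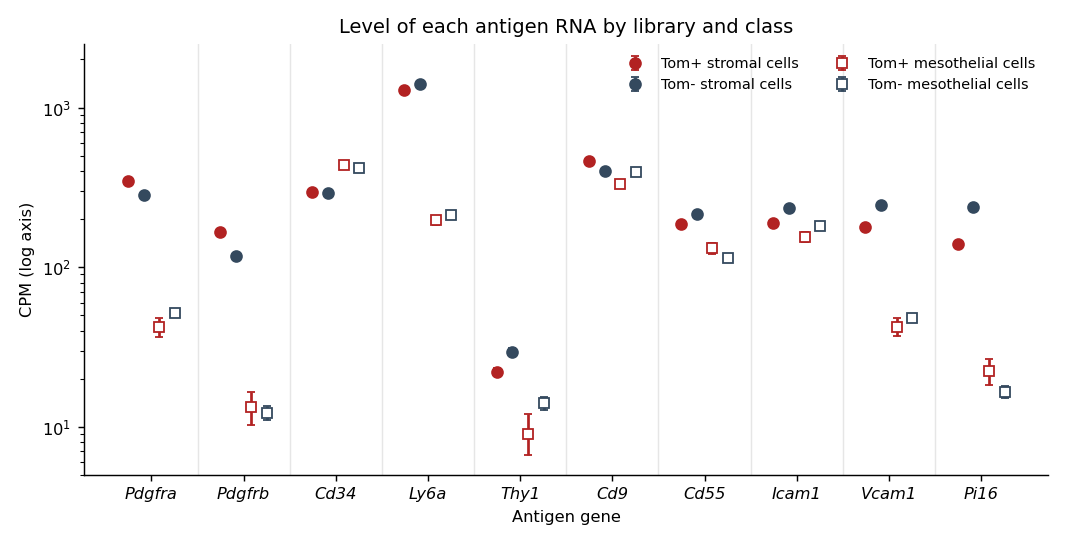
Level of each antigen RNA in CPM on a log axis. Filled circles are stromal and open squares mesothelial cells, red Tom+ and dark blue Tom-, each point 1 sum over the cells of a library with its exact Poisson 95% interval. Cd34 is the antigen with mesothelial points above the stromal ones in both libraries, near 435 and 417 against 294 and 292 CPM.

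Droplet data hold free RNA, so the share of cells with a UMI is given beside that in the plasma-like cells, which are not known for most of these antigens. They are no clean background, since the 8 stromal markers summed to 11312 and 8532 CPM in them and single Tom+ plasma-like cells held up to 37 Pdgfra UMIs. In thinned cells a Pdgfra UMI was found in 75.3% of Tom+ and 69.0% of Tom- stromal cells, in 18.4% and 18.3% of mesothelial cells and in 22.8% (15.9 to 31.1) and 27.7% (15.6 to 42.6) of plasma-like cells, whose median depth was 40756 and 39760.5 UMIs before thinning. Whether the Pdgfra UMIs of mesothelial cells come from free RNA cannot be read from these shares. For Pi16 the mesothelial shares were 3.6% (1.66 to 6.72) and 2.53% (1.87 to 3.35) against 2.36% and 2.13% in plasma-like cells, and in stromal cells 18.8% (17.4 to 20.2) and 25.9% (24.6 to 27.2). Thy1 was found in 7.28% and 8.78% of stromal, 1.20% and 5.55% of mesothelial and 2.36% (0.490 to 6.75) and 4.26% (0.520 to 14.5) of plasma-like cells. At this depth Cd34, Cd9 and Cd55 were found in more mesothelial than plasma-like cells. A Cd34 UMI was found in 15.7% and 19.1% of plasma-like cells, far under the mesothelial 82.8%, and a Cd55 UMI in 38.4% and 38.0% of mesothelial against 7.09% and 17.0% of plasma-like cells. A Cd9 UMI was found in 77.2% and 84.3% of mesothelial against 32.3% and 44.7% of plasma-like cells. Icam1 was found in 42.8% (36.6 to 49.2) and 47.4% (45.1 to 49.7) of mesothelial and in 32.3% (24.3 to 41.2) and 44.7% (30.2 to 59.9) of plasma-like cells, so that the Icam1 shares were not clearly parted. For Ly6a the plasma-like cells gave no background, since 96.1% and 93.6% of them held a UMI. Without thinning, the stromal shares were 92.3% and 87.2% for Pdgfra, 87.0% and 81.7% for Cd34, 28.1% and 33.1% for Pi16 and 14.6% and 16.0% for Thy1. Without thinning, Cd9 was in 98.8% and 98.6% of mesothelial and 83.6% and 82.0% of plasma-like cells. Cd55 was in 74.4% and 67.0% against 42.2% and 56.0%, and Cd34 in 96.0% and 96.8% against 43.8% and 54.0%. For Pi16 the order was reversed, with 7.60% and 8.11% of mesothelial against 17.2% and 16.0% of plasma-like cells, which were deeper.

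Between the sorted libraries, the stromal cells differed most in Pi16, Vcam1, Thy1, Pdgfrb and Icam1. Here each log2 ratio of Tom+ over Tom- CPM is relative to the median of the 9778 genes that averaged 5 CPM or more, which was 0.071, and a gene was called apart at 0.35 or more, a limit the study set for some of its gene lists on ratios that were not centred, while its methods also state a lower one. Of the 10 antigens 4 were lower in Tom+ stromal cells, against 11.1% of all genes, and 1 was higher, against 9.78%. Pi16 was lowest, with a relative ratio of -0.84 (-0.88 to -0.80), from 7125 Tom+ and 13722 Tom- UMIs, and only 1.80% of all genes lay at or below it. Vcam1 followed at -0.53 (-0.57 to -0.49), Thy1 at -0.49 (-0.60 to -0.38) and Icam1 at -0.38 (-0.41 to -0.34). Before centring, Icam1 was at -0.31 and within the limit, and Vcam1, at -0.46, and Thy1, at -0.42, were past it. Pdgfrb was higher in Tom+ stromal cells, at 0.44 (0.40 to 0.49). With mitochondrial UMIs under 5% in place of 8%, Icam1 was at -0.34 and no longer past the limit.

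The other 5 antigens stayed within the limit. Pdgfra was at 0.21 (0.18 to 0.25) and Cd9 at 0.14 (0.11 to 0.16), above the median gene. Cd55 was at -0.27 (-0.31 to -0.23), and at -0.10 with each cell weighted equally. Ly6a was at -0.21 (-0.22 to -0.19). Cd34 was at -0.060 (-0.092 to -0.028), and over the alternatives it ran from -0.081 to 0.024. Of the antigens used to gate APCs, Pdgfra was thus higher and Ly6a lower in Tom+ stromal cells by amounts small beside those of Pi16, and the sign of Cd34 depended on the cells taken. Pi16 ran from -0.88 to -0.64 over the same alternatives, and was -0.80 without plasma-like cells and -0.70 without the barcodes listed in both libraries.

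The share of cells with a UMI and the UMIs per such cell were also taken apart. Pi16-positive thinned stromal cells held on average 4.22 Pi16 UMIs in the Tom+ and 4.61 in the Tom- library, next to shares of 18.8% and 25.9%. Most of the Pi16 difference therefore lay in the share of cells with a UMI. Icam1 was found in 43.6% (41.9 to 45.4) of Tom+ and 46.9% (45.5 to 48.4) of Tom- thinned stromal cells and Vcam1 in 48.5% (46.7 to 50.2) and 55.8% (54.4 to 57.3). In plasma-like cells the Icam1 shares were 32.3% (24.3 to 41.2) in the Tom+ and 44.7% (30.2 to 59.9, 47 cells) in the Tom- library. At this depth only the Tom+ stromal share was above the plasma-like share of its own library within error. Without thinning the order was the reverse in the deeper plasma-like cells. There Icam1 was found in 71.1% of plasma-like against 66.7% of stromal cells in the Tom+ library, and in 82.0% against 63.9% in the Tom- library. The Icam1 shares therefore do not set stromal cells apart from plasma-like cells in either library. The Vcam1 shares in thinned plasma-like cells were 29.9% and 27.7%. Pdgfrb was found in 51.7% (50.0 to 53.5) and 40.5% (39.0 to 41.9) of thinned stromal cells, and Cd9 in 80.2% and 73.0%.

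In the mesothelial cells, which antigens passed the limit between the libraries depended on the barcodes listed in both, and Pi16 and Thy1 moved most. Other antigens moved little. Without these barcodes Ly6a was at -0.16, Cd9 at -0.21 and Icam1 at -0.24, against -0.15, -0.28 and -0.26 with all cells. With all cells, the median log2 ratio over 10013 genes was 0.032, and 1 antigen, Pi16, was past 0.35 above it, against 5.93% of all genes, and 1, Thy1, below it, against 5.53%. At a relative log2 ratio of 1, 0 antigens were higher, against 0.659% of all genes, and 0 lower, against 0.35%. Thy1 was at -0.67 (-1.13 to -0.24), on 48 Tom+ UMIs. Pi16 was at 0.39 (0.091 to 0.68), and this value rested on the single cell that held 74 UMIs. Without that cell, whose barcode was listed in both libraries, Pi16 was at 8.32 against 16.5 CPM and a relative ratio of -1.02 (-1.5 to -0.58). Without all barcodes listed in both, 150 Tom+ mesothelial cells remained and 4 antigens were past 0.35. These were lower in Tom+, with Thy1 at -1.76, Pi16 at -1.20, and Vcam1, at -0.37, and Pdgfra, at -0.36, close to the limit. Pdgfrb was on the higher side, at 0.35 after rounding, and was not counted as past it. The share of all genes past 0.35 is not given for this smaller set, so the count cannot be read against it. Immune markers stood higher in Tom+ than in Tom- mesothelial cells, and their part in the mesothelial ratios was not tested.

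Cd34 was at 0.027 (-0.037 to 0.091) in mesothelial cells, an interval that included the median gene. Icam1 was at -0.26 and Vcam1 at -0.23, the same sign as in stromal cells. Pdgfra was at -0.33 (-0.53 to -0.12) and Cd9 at -0.28 (-0.35 to -0.21), and Cd55 at 0.17 (0.049 to 0.29). These signs were the opposite of those in stromal cells. The mesothelial Cd55 value was -0.015 without the barcodes listed in both.

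**Figure D2:**
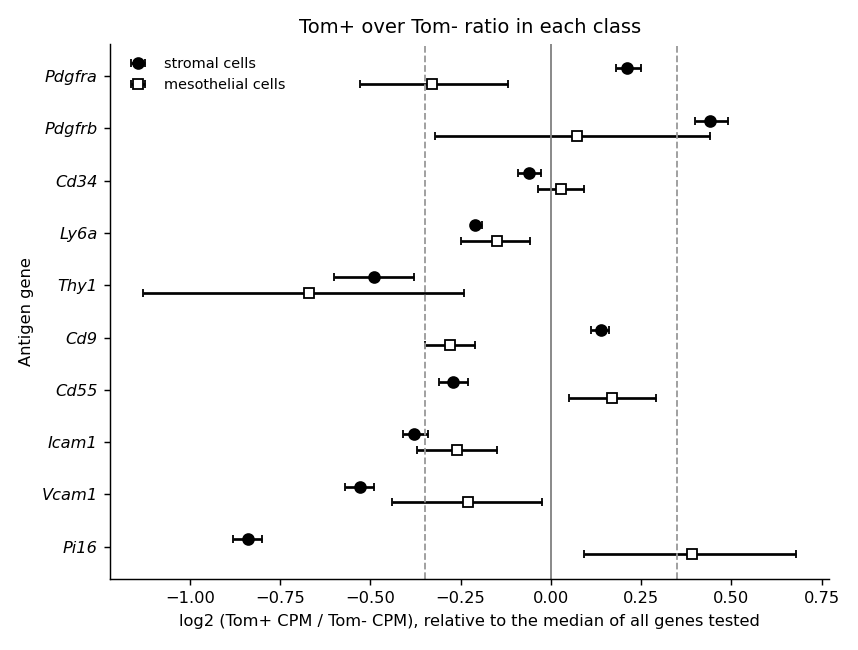
Log2 ratio of Tom+ over Tom- CPM for each antigen, relative to the median of all genes tested, in stromal (filled circles) and mesothelial (open squares) cells, with exact 95% counting intervals. The dashed lines mark 0.35 in each direction. The stromal points of Pi16, Vcam1, Thy1 and Icam1 lie left of the lower line and that of Pdgfrb right of the upper one.

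The antigens were then placed, within stromal cells, between Dpp4, known from interstitial progenitors, and Pparg, the master regulator of the adipocyte fate. Neither gene is among the 10. Dpp4 RNA was higher in mesothelial cells, with relative log2 ratios of stromal over mesothelial of -2.08 (Tom+) and -2.25 (Tom-). After thinning, 68.8% and 69.2% of mesothelial cells held a Dpp4 UMI, against 20.2% and 15.4% of stromal cells. A Dpp4 UMI alone thus did not single out stromal cells. Thinned stromal cells with a Dpp4 UMI and no Pparg UMI are called Dpp4 cells here and numbered 601 of the Tom+ (19.1%) and 674 of the Tom- library (14.8%). Those with a Pparg UMI and no Dpp4 UMI, called Pparg cells, numbered 250 (7.95%) and 408 (8.97%). Neither UMI was found in 71.8% and 75.6% of cells, so both sets are the part of each state that sparse counts reveal. A group of 5 antigens, Pi16, Cd55, Thy1, Cd34 and Ly6a, was higher in the Dpp4 cells, 3 antigens, Vcam1, Pdgfrb and Icam1, were higher in the Pparg cells, and Pdgfra and Cd9 hardly differed.

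Pi16 was at 2.69 UMIs per cell in Dpp4 cells and 0.124 in Pparg cells of the Tom+ library, and its log2 ratio was 4.44 (3.93 to 5.00). The Tom- library had 4.66 and 0.108, and a log2 ratio of 5.43 (5.00 to 5.90). Cd55 followed, with 2.50 and 0.300 UMIs per cell in the Tom+ and 3.61 and 0.221 in the Tom- library, log2 ratios of 3.06 (2.73 to 3.41) and 4.03 (3.73 to 4.35). Pi16 and Cd55 were thus the antigens that separated these sets most, in both libraries. Cd34 had log2 ratios of 1.15 and 1.54 and Ly6a of 0.83 and 0.87. Thy1 had ratios of 1.33 (0.69 to 2.03) and 1.70 (1.20 to 2.23) at levels of at most 0.310 UMIs per cell.

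On the Pparg side, Vcam1 was at 0.567 UMIs per Dpp4 cell and 1.14 per Pparg cell in the Tom+ library and at 0.617 in Dpp4 cells of the Tom- library, with log2 ratios of -1.0 (-1.23 to -0.77) and -1.01 (-1.20 to -0.82). Pdgfrb had ratios of -0.60 (-0.83 to -0.37) and -0.83 (-1.07 to -0.59). Icam1, which is widely used as an antigen of committed preadipocytes, had the smallest separation on this side, at -0.31 (-0.54 to -0.074) and -0.63 (-0.81 to -0.45). It was found in 39.1% of Dpp4 and 45.6% of Pparg cells in the Tom+ library and in 36.2% and 46.3% in the Tom- library, so an Icam1 UMI alone parted these cells poorly. Pdgfra was at 0.20 (0.047 to 0.36) and -0.053 (-0.20 to 0.10) and Cd9 at 0.0046 (-0.13 to 0.14) and 0.14 (0.0084 to 0.26).

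**Figure D3:**
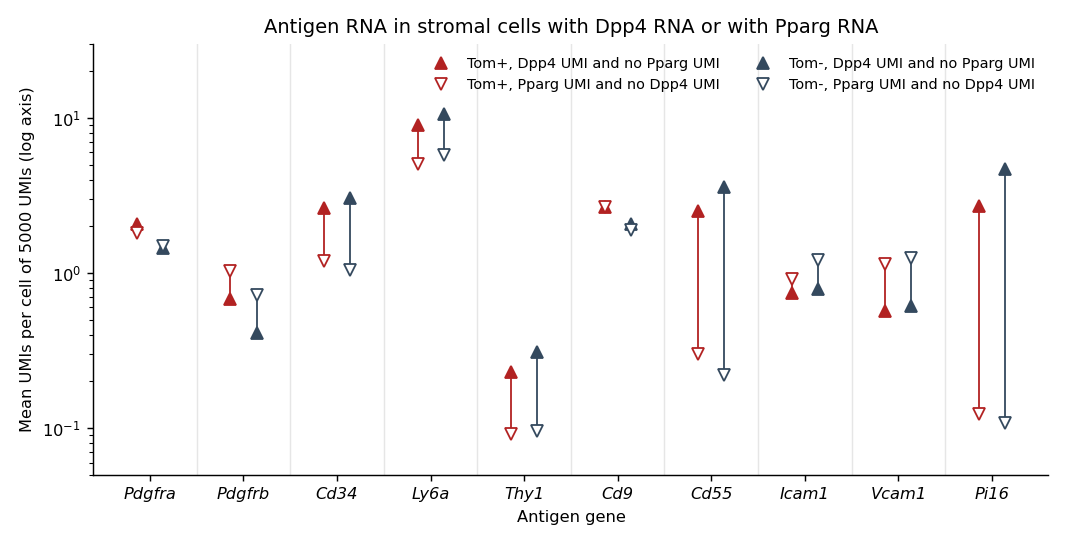
Mean UMIs of each antigen per stromal cell thinned to 5000 UMIs, on a log axis. Filled triangles pointing up are cells with Dpp4 and no Pparg UMI, open triangles pointing down cells with Pparg and no Dpp4 UMI, red Tom+ and dark blue Tom-, with a line joining the pair of 1 library. Pi16 and Cd55 show the longest lines, Pdgfra and Cd9 the shortest.

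Within the Dpp4 cells alone, Pi16 remained lower in the Tom+ library. A Pi16 UMI was found in 46.1% (42.0 to 50.2) of 601 Tom+ and 66.3% (62.6 to 69.9) of 674 Tom- Dpp4 cells, and the log2 ratio of mean UMIs, Tom+ over Tom- at equal depth and not centred on other genes, was -0.79 (-0.88 to -0.71). Cd55 was also lower there, at -0.53 (-0.62 to -0.43), with shares of 67.1% (63.1 to 70.8) and 73.7% (70.2 to 77.0). Dpp4 itself stood at 60.7 CPM in stromal cells of the Tom+ library and 50.7 CPM in those of the Tom- library. Pdgfra, at 0.54 (0.41 to 0.66), and Pdgfrb, at 0.73 (0.51 to 0.96), were higher in Tom+ Dpp4 cells.

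The other antigens differed between libraries according to the set of cells. In cells with neither Dpp4 nor Pparg UMI, Cd55 was at 0.21 (0.11 to 0.30) and Cd34 at 0.12 (0.053 to 0.19), against -0.22 (-0.31 to -0.12) for Cd34 in the Dpp4 cells. Vcam1 was at -0.40 (-0.48 to -0.33) in cells with neither UMI, and at -0.12 (-0.33 to 0.089) in Dpp4 and -0.13 (-0.35 to 0.080) in Pparg cells. Icam1 was at -0.32 (-0.39 to -0.25) in cells with neither UMI and -0.41 (-0.65 to -0.19) in Pparg cells. In Dpp4 cells it was at -0.090 (-0.28 to 0.095). No test of the difference between these sets was made.

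tdTomato RNA divides the Tom+ library further. Its level was 211 CPM in stromal cells of the Tom+ library and 13.1 CPM in those of the Tom- library. Of the 10772 tdTomato UMIs of Tom+ stromal cells, 3449 lay in the 128 plasma-like cells. Without thinning, a tdTomato UMI was found in only 28.6% of Tom+ and 13.1% of Tom- stromal cells. In the Tom+ library it was found in 79.2% of mesothelial and 98.4% of plasma-like cells, against 11.4% and 30.0% in the Tom- library. Why most Tom+ stromal cells held no tdTomato UMI was not tested. After thinning it was found in 546 of 3144 Tom+ stromal cells, 17.4% (16.1 to 18.7), against 6.16% (5.48 to 6.90) of Tom- stromal cells. Of the 546, 116 were plasma-like, a share of 21.2%, and plasma-like cells held few UMIs of most antigens, so the split was made without them. In the 430 remaining cells with a tdTomato UMI, against 2587 without, Pi16 was at 0.902 and 0.810 UMIs per cell, a log2 ratio of 0.16 (-0.0046 to 0.31), and Pdgfra at 1.87 and 1.92, a ratio of -0.038 (-0.15 to 0.070). The Pi16 share was 18.8% (15.3 to 22.9) with and 19.6% (18.1 to 21.2) without tdTomato RNA, both under the 26.3% (25.0 to 27.7) of Tom- cells without it. Within the Tom+ library, Pi16 was thus not lower in the cells with a tdTomato UMI. The Tom+ cells without such a UMI were sorted by fluorescence too, and some Tom- cells held one. Thinned stromal cells with a tdTomato UMI held on average 6.08 of them in the Tom+ library, plasma-like cells included, and 1.08 in the Tom- library. The most in 1 stromal cell before thinning was 102 and 4. A split at 1 UMI takes no account of this difference, so it does not cleanly part cells with the reporter from cells without it.

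Ly6a was lower in the Tom+ stromal cells with a tdTomato UMI, at -0.28 (-0.34 to -0.21), and so were Cd9, at -0.20 (-0.30 to -0.10), and Pdgfrb, at -0.19 (-0.36 to -0.028). Cd34 was lower by less, at -0.12 (-0.24 to -0.0040). Icam1, at 0.15 (0.0083 to 0.30), and Thy1, at 0.44 (0.019 to 0.84), were higher. Beside the Tom+ over Tom- ratios of stromal cells, the sign was the same for Ly6a and opposite for Cd9, Pdgfrb, Icam1 and Thy1. Cd34 had no settled sign between the libraries. With the plasma-like cells kept in, Pi16 was at -0.15, Pdgfra at -0.32 and Cd55 at -0.40, against -0.088 (-0.24 to 0.061) for Cd55 without them.

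Co-detection was read as the share of thinned stromal cells with UMIs of both antigens divided by the product of their single shares, and a pair was called apart where this lay at least 25% above the product or at least 20% below it in both libraries. Of 45 pairs 3 were apart, all with Pi16. Pairs with Ly6a or Cd9, found in 94.5% and 80.2% of Tom+ stromal cells, could not lie 25% above the product in that library. Cd34 with Pi16 (1.29 and 1.23) and Cd55 with Vcam1 (0.795 and 0.824) were past a limit in the Tom+ library only. Thy1 with Cd55 (1.22 and 1.45) and Pdgfrb with Pi16 (0.824 and 0.794) were so in the Tom- library only. The list of pairs thus depends on the measure and the limits. Cd55 and Pi16 were found together in 13.3% of Tom+ and 16.8% of Tom- stromal cells, 1.94 and 1.90 times the product. A Pi16 UMI was found in 36.4% (33.6 to 39.3) of Tom+ cells with a Cd55 UMI and in 8.70% (7.50 to 10.0) of those without, and in 49.1% (46.6 to 51.6) and 13.8% (12.6 to 15.1) in the Tom- library. Thy1 and Pi16 were together 1.84 and 1.54 times as often as the product, although only 79 and 159 cells held both. Vcam1 and Pi16 were together less often, at 0.740 and 0.774 times the product, and a Pi16 UMI was in 13.9% (12.2 to 15.8) of Tom+ cells with and 23.4% (21.4 to 25.5) without a Vcam1 UMI. In the Tom- library these shares were 20% (18.5 to 21.7) and 33.3% (31.2 to 35.4). At 10000 UMIs per cell, and also without thinning, 2 pairs were apart, both above the product and both among the 3, and Vcam1 and Pi16 were no longer apart.

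The antigens of a common APC gate were found together nearly as often as their single shares give, with Pdgfra and Cd34 at 1.03 times the product in the Tom+ library and Pdgfra and Pdgfrb at 1.05. Such ratios cannot exceed 1 divided by the larger single share, so they cannot run far above 1 where either share is high. Ly6a and Pi16 were thus at 1.05 times the product in the Tom+ library. A Pi16 UMI was nevertheless in 19.7% (18.2 to 21.1) of cells with and 4.05% (1.64 to 8.16) without a Ly6a UMI there. Requiring 2 UMIs in place of 1 as detected gave 14 pairs apart, 6 above and 8 below, and included the same 3. In mesothelial cells 7 pairs were apart, 6 above and 1 below. All of them held Pdgfrb or Pi16, and in the Tom+ library they rested on 0 to 9 cells with both.

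**Figure D4:**
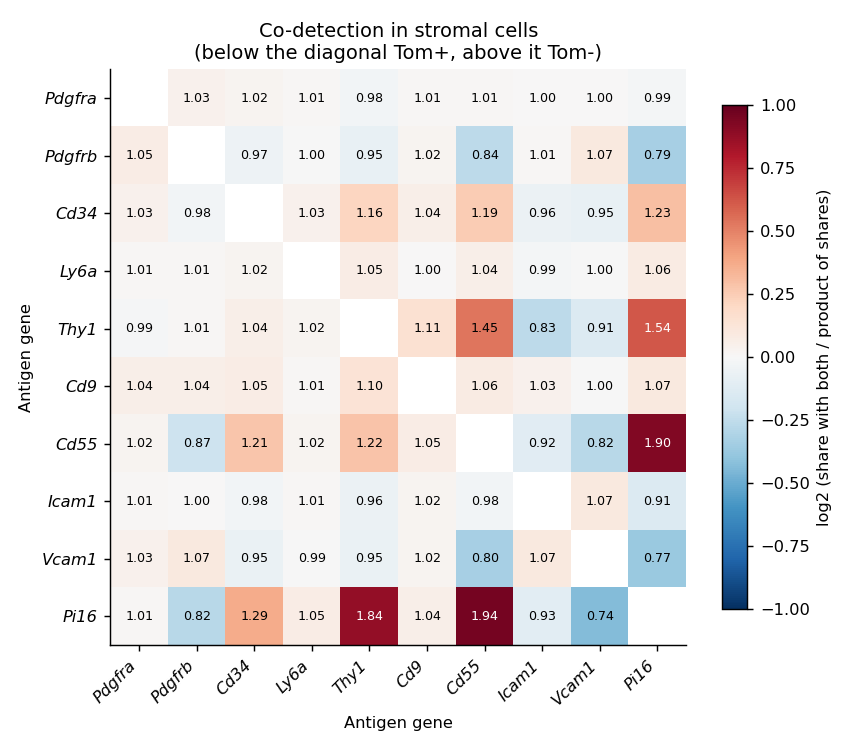
Co-detection of each pair of antigens in stromal cells thinned to 5000 UMIs, as the share with both divided by the product of the single shares (number in each square, colour on a log2 scale). Squares below the diagonal are the Tom+ and those above it the Tom- library. The row and column of Pi16 hold the highest values, 1.94 and 1.90 with Cd55, and the lowest, 0.740 and 0.774 with Vcam1.

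Counted per cell at equal depth, Tom+ stromal cells held UMIs of 5.25 of the 10 antigens on average (SD over cells 1.54, 3144 cells) and Tom- stromal cells of 5.10 (SD 1.52, 4547 cells). Mesothelial cells held 3.20 (SD 1.26, 250 cells) and 3.39 (SD 1.27, 1856 cells). The classes differed more than the libraries did. At least 7 antigens were found in 20.1% of Tom+ and 17.6% of Tom- stromal cells, and 3 or fewer in 11.2% and 14%. All 10 were found in 2 stromal cells of each library. The gate Pdgfra, Cd34 and Ly6a together, written as RNA, was met by 51.3% (49.5 to 53.1) of Tom+ and 43.2% (41.7 to 44.6) of Tom- stromal cells and by 4.8% (2.5 to 8.23) and 6.30% (5.24 to 7.51) of mesothelial cells. At 10000 UMIs per cell, with shallower cells left out, the average was 6.42 in Tom+ and 6.47 in Tom- stromal cells. The order of the libraries was thus not the same in both settings, which differ in depth and in the cells that remain.

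**Figure D5:**
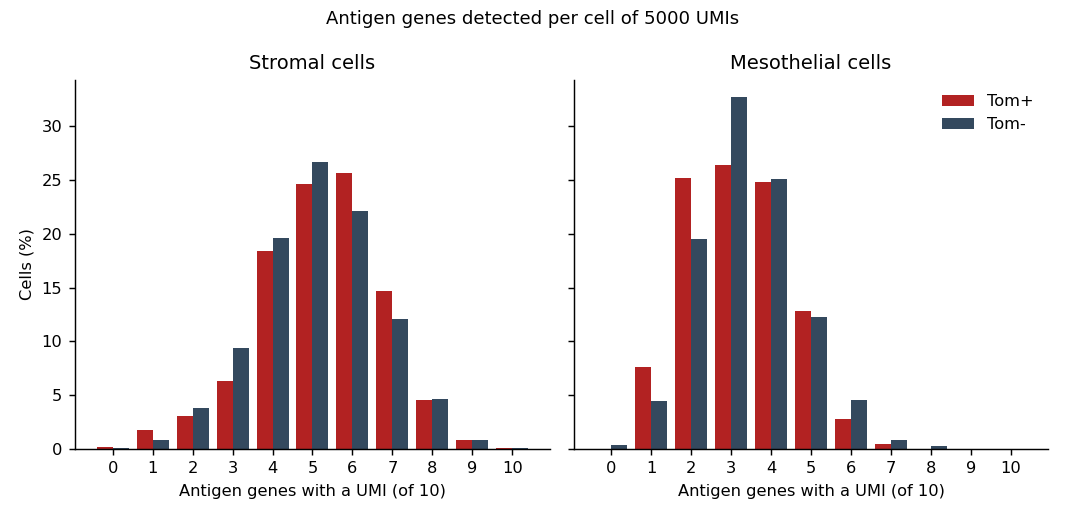
Share of cells, in percent, by the number of the 10 antigen genes with at least 1 UMI after thinning to 5000 UMIs, stromal cells at left and mesothelial at right, red Tom+ and dark blue Tom-. Stromal cells peak at 5 or 6 antigens and mesothelial cells at 3.

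Over thinned stromal cells, the genes whose log-normalised values went most closely with each antigen were taken by the lower of the Pearson correlations in the Tom+ (3144 cells) and Tom- library (4547 cells), among 2843 or 2844 genes that averaged 50 CPM or more. Cells of a library share its depth and free RNA, so these are descriptions. Pi16 and Cd55 had the same leading gene, Sema3c, a secreted semaphorin, at 0.53 and 0.57 for Pi16 and 0.51 and 0.57 for Cd55, and each was the other's next, at 0.50 and 0.56. Ackr3 for Cd55 (0.45 and 0.49) and Sbsn for Pi16 (0.44 and 0.50) came after. Cd34 went with Sema3c (0.37 and 0.39), Cd55 (0.36 and 0.37) and Cd248 (0.36 and 0.37). Ly6a went with its family member Ly6c1, at 0.51 and 0.55, which could share reads with it, and with Cd248 and Fn1.

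For the other antigens the values were weak. Cd9 went with S100a6 (0.41 and 0.27), Crip1 and Igfbp6. The leading gene of Icam1 was Mt1 (0.24 and 0.25), with Mt2 and the chemokine Cxcl1 after it, and that of Vcam1 was Cp (0.18 and 0.19), with Steap4 and Cxcl12. Thy1 went with Marcks (0.19 and 0.21), Pcsk6 and S100a6, Pdgfra with Gsn (0.22 and 0.18), Col4a1 and Dpep1, and Pdgfrb with Col4a1 (0.27 and 0.16), Fabp4 and Col3a1. Without the plasma-like cells, Gsn was no longer among the 3 leading genes of Pdgfra, which were Col4a1 (0.15 and 0.15), Dpep1 and Lpl. Jun (0.14 and 0.15) took the place of Col3a1 for Pdgfrb and Pi16 (0.34 and 0.37) that of Cd248 for Cd34, and Steap4 (0.18 and 0.17) came before Cp for Vcam1.

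Relatives and partners of the antigens and other sorting antigens were grouped in lists and compared in the same way, and their directions were mixed. Over all genes 9.78% were past 0.35 above the median gene and 11.1% below it in this comparison, and the lists are too short to be read against these shares. Of 15 other tetraspanins tested between Tom+ and Tom- stromal cells, 4 were past 0.35 above the median gene and 5 below, from Cd53 at 1.16 to Cd82 at -0.75, with a list median of -0.31. Of 7 other Ly6 and uPAR genes, with a median of -0.048, 2 were higher, led by Ly6d at 2.35, and 1 lower, Plaur, the urokinase receptor, at -0.86. Cd53 is a tetraspanin of leukocytes and Ly6d is known from B lymphocytes, and the immune and plasma markers stood higher in Tom+ stromal cells, at 195 against 51.6 CPM and 1994 against 1162 CPM, whose part in these values was not tested. Of 4 other PDGF genes, with a median of -0.30, 0 were higher and 1 lower, Pdgfrl at -0.80, and Pdgfa, a ligand of PDGFRA, was at 0.083. The only complement regulator tested was Cr1l, at -0.22. Of 3 partners and kin of ICAM and VCAM, with a median of -0.082, 1 was lower, Ncam1 at -1.62, and Itga9, a subunit of an integrin that binds VCAM1, was at 0.0011. Of 2 genes of the CD34 list, Podxl2 and Crkl, with a median of 0.45, 1 was higher, Podxl2 at 0.54. Crkl was at 0.35 after rounding and was not counted as higher. Of 12 other antigens used for sorting, with a median of -0.10, 2 were higher, led by Entpd1 at 0.59, and 3 lower, led by Cd200 at -1.03.

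Between stromal and mesothelial cells the families spread far more widely. In the Tom+ library 4 tetraspanins of 19 were higher in stromal cells by at least 1 and 5 lower, against 11.1% and 11.6% of all genes, and Tspan8, at 0.117 CPM in stromal and 77.0 CPM in mesothelial cells, had the lowest ratio. Podxl, the sialomucin podocalyxin related to CD34, was at 0.254 and 80.8 CPM in the Tom+ and 0.691 and 63.9 CPM in the Tom- library, a mesothelial level like that of Cd34 in direction and far wider in ratio. The Ly6 and uPAR genes were split, with 4 of 8 higher in stromal cells of the Tom+ library and 3 lower. Ly6d and Ly6c1 were on the stromal side with Ly6a. Plaur, at 264 CPM in mesothelial against 13.2 CPM in stromal cells, Ly6e, at 850 against 269 CPM, and Cd59a were on the mesothelial side. Pdgfa was at 8.92 CPM in stromal and 55.8 CPM in mesothelial cells of the Tom+ library and at 8.02 and 58.6 CPM in the Tom- library, the reverse of its receptor gene Pdgfra. Cd200 was at 10.5 CPM in stromal and 291 CPM in mesothelial cells of the Tom+ library, and Itga9 at 44.7 and 5.07 CPM.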

How the data were processed

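Sorted CD31- CD45- cells were made into 3′ droplet libraries (10x Chromium kit v3.1). The authors deposited raw UMI counts per gene and barcode for each library. The submitters' processing notes name Cell Ranger 3.0.2 and mm10, and the filters before deposit are not given in the sources used here. Here counts were summed per class and library and scaled to CPM, which compares libraries for 1 gene and not genes with each other. Levels have exact Poisson intervals, and shares and ratios Clopper-Pearson ones, computed in Python 3.11.15, numpy 2.4.6 and scipy 1.17.1. The computation was tested on simulated data. Shares were read after thinning without replacement to 5000 UMIs, leaving out shallower cells (119 Tom+ and 253 Tom- stromal, 0 and 31 mesothelial). No doublet caller was run, and an alternative left out the 5% of cells with the most UMIs. The antigens, gene lists, limits and gates were chosen with earlier results of these data known. Named genes were the 10 antigens, the 3 genes best correlated with each, and the highest and lowest member of each list, besides Dpp4, Pparg and tdTomato, and a few list members named after their values were seen. Gene positions are from GENCODE (GRCm38) and upstream sequences from RefSeq (GRCm38.p6), where 6 antigens were matched. The alternatives changed class limits, cell filters, barcodes, scaling, weighting, depth and the UMIs that count as detected. Leaving out plasma-like cells was chosen after seeing the data.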

Additional observations from a re-analysis of the deposited data

Results flagged for a closer look

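For 4 antigens the log2 ratio of Tom+ over Tom-, relative to the median gene, had opposite signs in stromal and mesothelial cells. Their counting intervals left out the median gene in both classes. Pdgfra was at 0.21 in stromal and -0.33 in mesothelial cells, and Cd9 at 0.14 and -0.28. Cd55 was at -0.27 and 0.17, and Pi16 at -0.84 and 0.39. Cd34 also had opposite signs, at -0.060 and 0.027, but its mesothelial interval included the median gene. With 1 library per condition each sign rests on 1 pair of libraries, and the difference between the classes was not tested. The mesothelial value of Pi16 turned negative without 1 cell, and that of Cd55 was -0.015 without the barcodes listed in both libraries.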

How the results depend on the processing

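Over 12 alternatives for each of 40 antigen ratios, 480 values in all, 419 moved by less than their counting interval and the other values by more. Some alternatives changed the cells of only 1 class. The Tom+ over Tom- ratios of the other class could then not move, and they are counted among the 419. Among ratios past their limit 1 changed sign, which was Pi16 in mesothelial cells, Tom+ over Tom-, at -1.20 without barcodes listed in both libraries. Within the limit, the sign of Tom+ over Tom- turned for stromal Cd34 in 3 alternatives (highest 0.024), for mesothelial Cd34 in 1 (-0.0037) and for mesothelial Cd55 in 1 (-0.015). Without these barcodes 4 antigens in place of 2 were past 0.35 in mesothelial cells, a count without the share of all genes for the same cells. The number past the limit was 4 or 5 in stromal cells and 6 or 7 between the classes. The mean number of antigens per Tom+ stromal cell, 5.25 as reported, was 5.37 without cells with a UMI of Ptprc, Pecam1, Jchain or Mzb1, 5.33 without the 5% of cells with the most UMIs, 5.34 without barcodes listed in both and 5.36 without plasma-like cells. For Tom+ and Tom- stromal cells it was 6.42 and 6.47 at 10000 UMIs, 6.86 and 6.50 without thinning, and 3.35 and 3.10 with at least 2 UMIs. With at least 2 UMIs 14 pairs were apart in place of 3. At 10000 UMIs and without thinning 2 were, and Vcam1 with Pi16 was lost. The cause of these changes was not tested, apart from the single Pi16 cell named in the report. No paired analysis was possible because each condition is 1 library and the labels carry no replicate numbers, and for the same reason no library could be left out. Thy1 and Pi16 rested on 48 and 118 UMIs in 250 Tom+ mesothelial cells.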
